A study of Mus musculus with 8 samples.

Results

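The genes described here are 48 cell cycle and DNA replication genes, listed by name and not by their measured values, as they appear in microglia of mice of 2 Cx47 genotypes. They fall into 19 S-phase genes, which license and copy DNA, supply nucleotides or control entry into S phase, and 29 mitotic genes, which drive and carry out division. Of the 48, 45 were named on the array, among 30743 named genes, and 3 were skipped (Ccnb1, Mcm7 and Foxm1). The study holds 8 arrays of microglial RNA from C57Black/6J mice, 1 for each combination of 2 genotypes and 4 states. The control genotype is labelled FL or, in the p50 pair, F/F. The other is labelled icKO and described as deficient in Cx47 (a connexin, the gap junction protein of oligodendrocytes), and the series title places the conditional deletion in oligodendroglia, so the cells profiled are not those targeted. The states were naive mice without disease, experimental autoimmune encephalomyelitis (EAE, an induced inflammation of the central nervous system), EAE under iguratimod (labelled IGU, an anti-inflammatory antirheumatic drug), and an EAE pair marked p50, a mark whose meaning the labels do not give. Age, sex, the driver of the deletion and the number of animals behind an array are not given in the sources used here, and the genotypes rest on the labels.

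Cells that enter the cycle first switch on genes under E2F transcription factors. Cdc6 and Cdt1 load the Mcm helicase onto replication origins, cyclin E (Ccne1, Ccne2) helps to start synthesis, the clamp Pcna holds the polymerases on the template, and ribonucleotide reductase (Rrm1, Rrm2), thymidylate synthase (Tyms) and thymidine kinase (Tk1) supply nucleotides. Later, genes for mitotic entry (Ccnb2, Cdk1, Plk1), the spindle and its checkpoint, and cytokinesis come on, under a repressor complex called DREAM and the activators B-Myb and FoxM1, which act at a promoter element called the cell cycle genes homology region (CHR), often beside CCAAT boxes. Microglia of the adult brain divide rarely and are known to multiply when the tissue is inflamed.

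Promoter sequences are shown for Mki67, Top2a and Cdk1, mitotic genes that passed a test described below, and for Rrm2, Mcm3 and Mcm6, the S-phase genes with the largest differences in disease. They are examples and need not be typical of their group. The mitotic ones are not those with the largest differences. Cdk1 passed only between the p50 pair and EAE. Nusap1, which passed there and between EAE and naive, held none of the elements sought and is not printed. The shares over each group follow the sequences. The stretches are the 250 bases before the RefSeq start, in build GRCm38.p6, written 5′ to 3′ on the gene's strand. Capitals mark the E2F core (TTCCCGC or TTCGCGC or TTGCCGC or TTGGCGC) and the CHR (TTTGAA or TTCGAA), each searched on both strands. E2F cores on opposite strands can overlap, and TTCGAA reads the same on both strands and was counted once.
Mki67, chr7:135716380-135716629, minus strand: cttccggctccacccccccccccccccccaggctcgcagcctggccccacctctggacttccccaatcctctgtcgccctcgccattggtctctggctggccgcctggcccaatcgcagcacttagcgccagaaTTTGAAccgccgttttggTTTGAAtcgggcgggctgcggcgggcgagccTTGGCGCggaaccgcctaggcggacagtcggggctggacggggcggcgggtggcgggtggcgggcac
Top2a, chr11:99024190-99024439, minus strand: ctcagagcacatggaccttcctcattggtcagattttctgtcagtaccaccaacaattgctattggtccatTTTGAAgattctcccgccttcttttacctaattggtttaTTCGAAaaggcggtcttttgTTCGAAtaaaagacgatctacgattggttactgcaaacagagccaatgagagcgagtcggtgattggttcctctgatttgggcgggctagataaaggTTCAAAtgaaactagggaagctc
Cdk1, chr10:69352913-69353162, minus strand: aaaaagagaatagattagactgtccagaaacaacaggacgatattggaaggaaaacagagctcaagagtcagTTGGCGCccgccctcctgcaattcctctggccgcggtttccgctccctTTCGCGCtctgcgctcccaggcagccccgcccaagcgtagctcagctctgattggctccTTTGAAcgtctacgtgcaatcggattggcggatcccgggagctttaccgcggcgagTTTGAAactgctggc
Rrm2, chr12:24708004-24708253, plus strand: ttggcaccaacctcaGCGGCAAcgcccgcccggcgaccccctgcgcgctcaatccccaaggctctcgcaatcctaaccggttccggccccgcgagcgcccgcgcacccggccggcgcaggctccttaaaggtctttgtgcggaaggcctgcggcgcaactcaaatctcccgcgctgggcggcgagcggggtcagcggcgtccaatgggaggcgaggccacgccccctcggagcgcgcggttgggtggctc
Mcm3, chr1:20820313-20820562, minus strand: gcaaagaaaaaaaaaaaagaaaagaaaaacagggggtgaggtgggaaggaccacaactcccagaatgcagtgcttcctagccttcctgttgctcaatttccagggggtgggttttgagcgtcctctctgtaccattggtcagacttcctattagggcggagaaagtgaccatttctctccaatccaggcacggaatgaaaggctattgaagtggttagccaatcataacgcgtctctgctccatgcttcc
Mcm6, chr1:128359706-128359955, minus strand: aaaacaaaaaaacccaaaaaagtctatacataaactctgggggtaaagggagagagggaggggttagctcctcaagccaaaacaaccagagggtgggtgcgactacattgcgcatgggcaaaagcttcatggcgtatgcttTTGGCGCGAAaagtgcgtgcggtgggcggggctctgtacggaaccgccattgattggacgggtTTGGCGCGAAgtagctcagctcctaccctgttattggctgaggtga
Within these stretches Mki67 held 2 CHR and 1 E2F core, Top2a held 4 CHR and 0 E2F cores, and Cdk1 held 2 CHR and 2 E2F cores. The S-phase stretches held 0 CHR each, with 1 E2F core in Rrm2, 0 in Mcm3 and 4 in Mcm6. The E2F cores of Mcm3 lie after its start, at bases 20, 40 and 43, and are not printed.

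Promoters of 40 of the 48 genes were in the RefSeq table, which covers 250 bases before to 50 after a start. An E2F core lay in 10 of 16 S-phase genes (62.5%) and in 4 of 24 mitotic genes (16.7%), against 10.9% of all 27025 genes in the table. The CHR ran the other way, in 3 of 16 S-phase genes (18.8%) and 19 of 24 mitotic genes (79.2%), against 21.7% of all genes. A CCAAT box lay in 62.5% of S-phase and 87.5% of mitotic genes, against 41.1% of all genes. None of the 3 motifs lay in this window in 3 of 24 mitotic genes (Nusap1, Birc5 and Melk) and in 4 of 16 S-phase genes (Ccne1, Tyms, Tk1 and E2f1). In 38 further replication genes the shares were 68.4% for the E2F core, 18.4% for the CHR and 55.3% for the CCAAT box. In 39 further mitotic genes they were 30.8%, 71.8% and 66.7%. Of the 8 genes called higher in EAE, described below, 6 had a promoter in the table. A CHR lay in 5 of these 6 (83.3%) and an E2F core in 1 (16.7%). These are matches of letters, and binding was not measured.

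**Figure D1:**
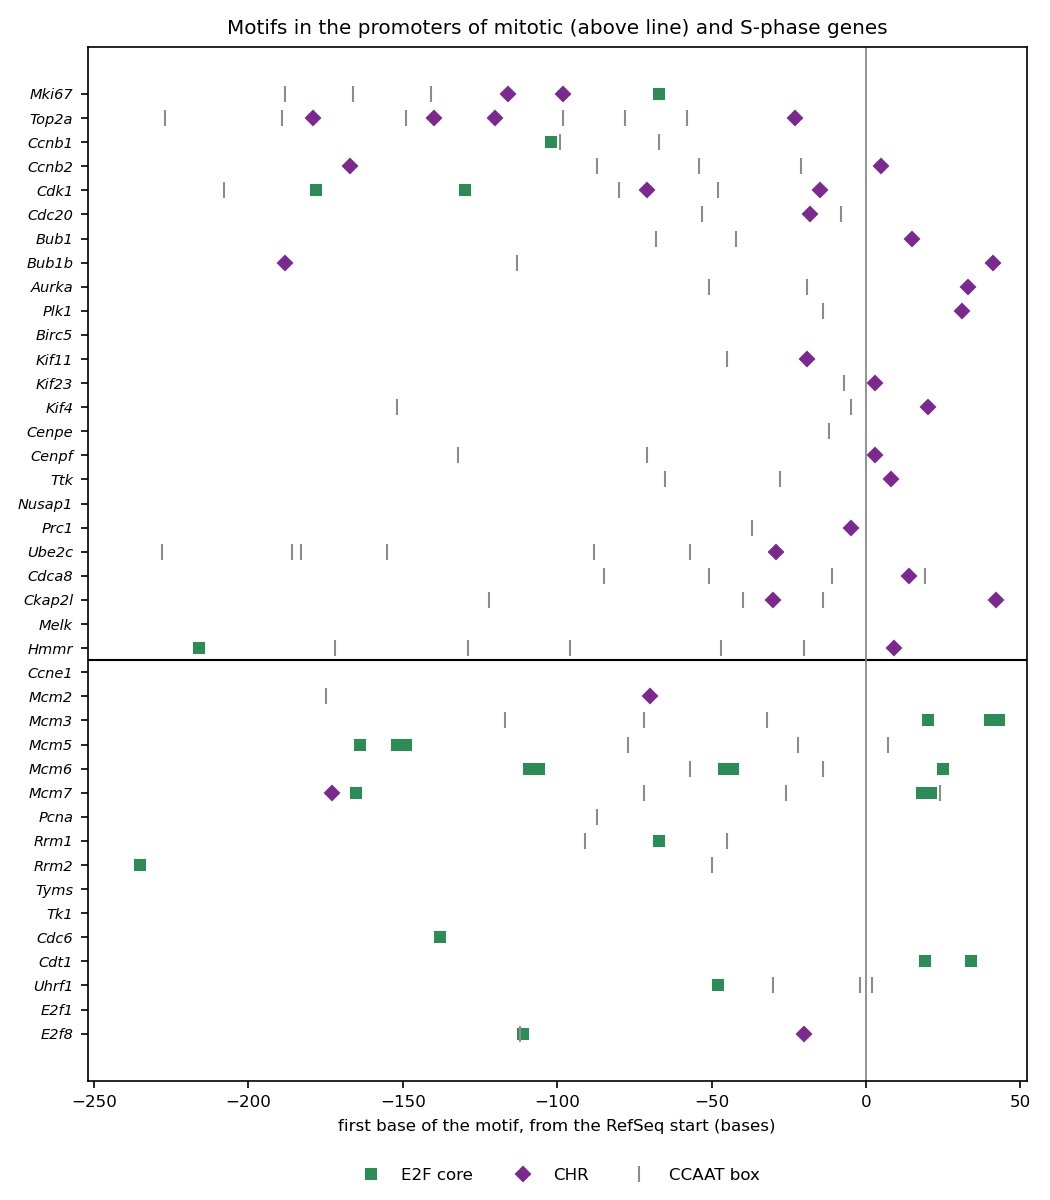
Positions of the E2F core (squares), the CHR (diamonds) and the CCAAT box (ticks) in the promoters of 24 mitotic and 16 S-phase genes, as bases from the RefSeq start, for the first start listed of each gene. Diamonds lie mostly above the line, in mitotic genes, where 19 of 24 held a CHR, and squares mostly below it, in S-phase genes, where 10 of 16 held an E2F core.

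Values are log2(intensity + 16) for the brightest probe set of a gene, called its level here, and a difference of 1 on this scale is 2-fold for a bright gene and somewhat more for a dim one. Array medians were 243.1 to 268.6 in linear intensity. The microglial markers Cx3cr1 and P2ry12 lay at 18.15 to 18.43 and at 12.67 to 14.17 over the 8 arrays, and 11 of 11 named microglial markers were bright enough to be tested. How they moved with the state is given with the leukocyte markers below. Tests covered the 18244 genes that exceeded the median of named probe sets, 8.12 to 8.24, on 1 array or more. Among the 45 named cell cycle genes, 32 passed this filter, 14 of 18 S-phase and 18 of 27 mitotic. The other 13 lay between 7.04 and 7.92 on every array, among them Birc5, Bub1, Cenpe, Cdc6, Cdt1, E2f1 and Mcm2, where a weak signal and no transcript look alike. Of the 32, 20 were above the filter's level on no naive array and so entered through a disease array, which favours a difference, so counts over all 45 named genes without the filter are given too. With 1 array per group, state and genotype were fitted together over the 8 arrays with limma. The spread came from how far the state and genotype effects failed to add up (3 residual degrees of freedom). It was drawn towards a spread shared by all genes tested (SD 0.16, with 2.87 prior degrees of freedom). The p-values therefore measure only the spread between these arrays.

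The first comparison asks how these genes differ between the microglial RNA of EAE and of naive mice. Mki67 rose the most, followed by Top2a and Ccna2. The 8 genes that passed the test were all mitotic and all higher: Mki67, Top2a, Ccna2, Ccnb2, Plk1, Kif23, Nusap1 and Tpx2. That is 8 of 32 tested cell cycle genes, against 3.33% of all genes tested that were called higher and 3.72% called in either direction, and 0 of the 32 were called lower, against 0.384% of all genes. Without the filter 5 of 45 were called higher (Mki67, Top2a, Ccna2, Plk1 and Nusap1), against 1.34% of all named genes. The median difference over the 45 was 0.35, beside a median of -0.05 over all named genes. Of the 45, 43 were above 0, against 12638 of all 30743 named genes. Both EAE arrays lay above both naive arrays in 39 of the 45, against 20.7% of all named genes. The exceptions were Aurka, Kif4, Ttk, Melk, Pcna and Cdc6. In bulk RNA, more cycling microglia, other cells that cycle and more of these transcripts per cell cannot be told apart. Markers of blood leukocytes moved too and are given below. The calls depend on every naive and EAE array, and so do those over all genes tested. Without either p50 array only Mki67 kept its call among the 32. With any 1 of the 8 arrays left out, Mki67 still differed by 3.48 to 3.64.

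Mki67, which encodes a coat protein of mitotic chromosomes and is the usual marker of cycling cells, was at 8.02 in control and 7.49 in icKO naive microglia. It was at 11.53 and 11.09 in EAE, at 11.23 and 10.61 under iguratimod, and at 8.46 and 8.38 in the p50 pair. The 4 EAE and iguratimod arrays stood at least 2 log2 units above the other 4. It rose in EAE by 3.56 ± 0.17 (SE) against naive, with a limma adjusted p of 0.0136. Both naive arrays were below the filter's level, and with them raised to it Mki67 was at least 8.64-fold higher in EAE. The same holds for the other called genes except Ccna2, so the differences given for them below are of dim naive signals, and their bounds ran from 1.18-fold for Kif23 to 1.71-fold for Top2a. Top2a, the topoisomerase that untangles replicated chromosomes, was at 7.82 and 7.77 in the naive control and icKO arrays, 9.23 and 8.72 in EAE, 8.76 and 8.76 under iguratimod, and 7.94 and 8.01 in the p50 pair. It rose by 1.18 ± 0.17 in EAE (adjusted p = 0.0306), and its naive and EAE arrays did not overlap.

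Among the genes of mitotic entry and exit, all 7 tested were higher in EAE, against 9361 of the 18244 genes tested. Of the 7, 3 were called, against 3.33% of all genes tested. Ccna2 (cyclin A2, which acts in S phase and at mitotic entry) was at 8.44 and 8.32 in naive control and icKO, 9.40 and 9.50 in EAE, 9.27 and 9.19 under iguratimod, and 8.78 and 8.58 in the p50 pair. It rose by 1.07 ± 0.13 (adjusted p = 0.0229), and it was the 1 gene among the 8 that lay above the filter's level in naive microglia too. Ccnb2 (cyclin B2, a partner of Cdk1) went from 8.01 and 7.85 in naive control and icKO to 8.69 and 8.81 in EAE, with 8.32 and 8.54 under iguratimod and 7.74 and 7.69 in the p50 pair. Its rise of 0.82 ± 0.14 (adjusted p = 0.0413) was lost without the filter (0.0511). Plk1, a kinase that starts centrosome maturation and mitotic entry, went from 7.88 and 7.87 to 8.86 and 8.64, with 8.63 and 8.61 under iguratimod and 7.90 and 7.97 in the p50 pair, a rise of 0.87 ± 0.13 (adjusted p = 0.0305). Cdk1, the kinase that drives mitotic entry, was at 7.93 and 8.13 in naive, 8.94 and 8.73 in EAE, 8.80 and 8.48 under iguratimod and 7.87 and 7.77 in the p50 pair. Its difference of 0.80 ± 0.16 did not pass (adjusted p = 0.0569), although its arrays did not overlap. Cdc20, which activates the ubiquitin ligase that ends mitosis, and Ube2c, which supplies it with ubiquitin, gave 0.43 ± 0.14 and 0.33 ± 0.16 and did not pass. Aurka, the spindle pole kinase, lay at 8.65 and 8.53 in naive and 8.70 and 8.59 in EAE, with overlapping arrays and a difference of 0.06 ± 0.12, and at 8.92 and 8.71 under iguratimod and 8.43 and 8.44 in the p50 pair.

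All 7 tested spindle and cytokinesis genes were higher in EAE, against 9361 of the 18244 genes tested. Of the 7, 3 were called, against 3.33% of all genes tested. Nusap1, a microtubule-binding spindle protein, went from 7.61 and 7.56 in naive control and icKO to 8.57 and 8.64 in EAE, with 8.32 and 8.10 under iguratimod and 7.66 and 7.57 in the p50 pair, a rise of 1.02 ± 0.13 (adjusted p = 0.0236). Kif23, a kinesin of the central spindle, went from 7.73 and 7.57 to 8.43 and 8.44, with 8.29 and 8.13 under iguratimod and 7.63 and 7.79 in the p50 pair, a rise of 0.79 ± 0.14 (adjusted p = 0.0419). Tpx2, which activates Aurora A on the spindle, went from 8.10 and 7.93 to 8.84 and 8.54, with 8.79 and 8.60 under iguratimod and 8.18 and 8.13 in the p50 pair. Its rise of 0.68 ± 0.12 had an adjusted p of 0.0467. The calls of Kif23 and Tpx2 were lost without the filter (0.0506 and 0.0515). Kif11 and Hmmr, also of the spindle, gave 0.51 ± 0.16 and 0.49 ± 0.14 and did not pass, nor did Prc1, which bundles microtubules of the central spindle, at 0.30 ± 0.15, or the cytokinesis kinesin gene Kif20a, at 0.22 ± 0.13. In the group of checkpoint, kinetochore and passenger genes only Aurkb and Cdca8 were bright enough to be tested, and neither passed. Aurkb, the kinase of the chromosomal passenger complex, lay at 8.32 and 8.14 in naive, 8.49 and 8.40 in EAE, 8.79 and 8.31 under iguratimod and 8.09 and 8.07 in the p50 pair, a difference of 0.22 ± 0.15 between EAE and naive.

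**Figure D2:**
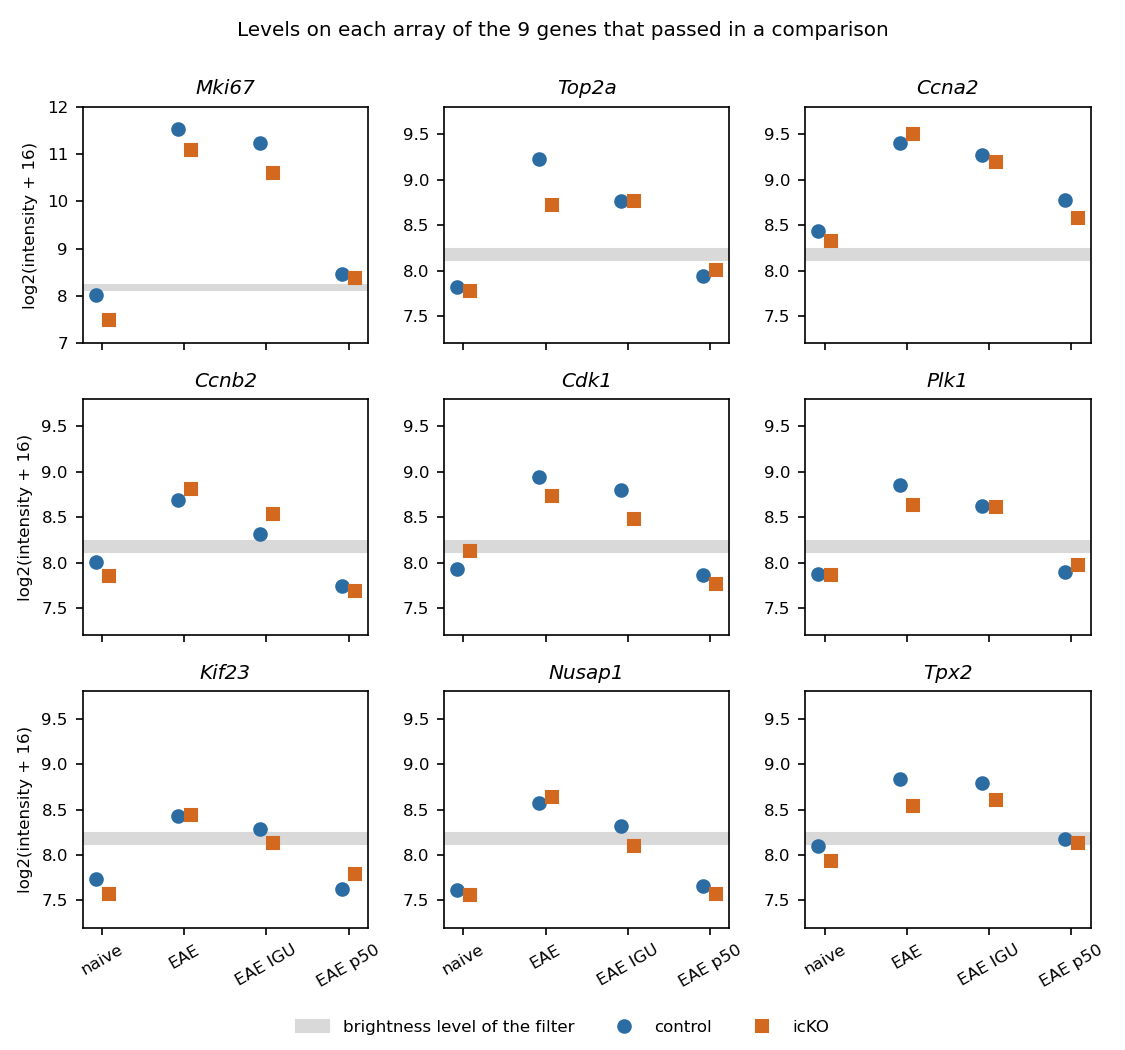
Level, log2(intensity + 16), on each of the 8 arrays of the 9 genes that passed in at least 1 comparison, by state, with control as circles and icKO as squares (1 array each). The grey band is the brightness level of the filter, 8.12 to 8.24, and Mki67 has a taller axis than the other genes. In each panel both EAE points lie above both naive and both p50 points.

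Among the 14 tested S-phase genes 0 passed in EAE at the adjusted threshold, the lowest adjusted p being 0.0551. Of all genes tested 3.33% were called higher and 0.384% lower, and 0 of 14 lies near those shares. Of the 14, 10 had an unadjusted limma p under 0.05, against 3498 of the 18244 genes tested. All 14 had a difference above 0, against 9361 of the 18244. Rrm2, the regulated subunit of ribonucleotide reductase, was at 7.13 in control and 7.02 in icKO naive microglia, 7.56 and 8.26 in EAE, 7.61 and 7.07 under iguratimod, and 7.06 and 7.17 in the p50 pair. The icKO EAE array was the highest and alone lay above the filter's level. Its difference from naive was 0.83 ± 0.28 (adjusted p = 0.192). Mcm3, a subunit of the replicative helicase, was at 8.25 and 8.30 in naive, 8.95 and 9.25 in EAE, 8.75 and 8.74 under iguratimod and 8.73 and 8.47 in the p50 pair, with a difference of 0.82 ± 0.16 between EAE and naive (adjusted p = 0.0566). Mcm6, of the same helicase, was at 7.47 and 7.53 in naive, 8.33 and 8.26 in EAE, 7.84 and 8.03 under iguratimod and 7.67 and 8.10 in the p50 pair, with a difference of 0.79 ± 0.15 (adjusted p = 0.0551). In both Mcm genes the EAE arrays were above all others. Pcna was at 11.32 in control and 12.40 in icKO naive microglia, 12.23 and 12.94 in EAE, 12.27 and 12.56 under iguratimod, and 12.21 and 12.59 in the p50 pair. Its naive and EAE arrays overlapped, the naive control array lay apart from the other 7, and its difference was 0.73 ± 0.21 (adjusted p = 0.143). The array also names pseudogenes of Pcna, whose transcripts may share probes with it.

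The remaining S-phase genes differed less. Tk1 gave 0.69 ± 0.15 (adjusted p = 0.0739), Ccne2 gave 0.58 ± 0.15, Mcm4 gave 0.43 ± 0.13 and Rrm1 gave 0.39 ± 0.12 between EAE and naive. Ccne1, the atypical repressor E2f8, Tyms and Mcm5 gave 0.29 to 0.37. Gins2, a subunit of the active helicase, lay at 7.88 and 8.05 in naive, 8.09 and 8.28 in EAE, 7.97 and 8.01 under iguratimod and 7.86 and 7.76 in the p50 pair (0.22 ± 0.13 for EAE against naive). Uhrf1, which maintains DNA methylation behind the fork, lay at 8.13 and 8.20 in naive, 8.29 and 8.30 in EAE, 8.36 and 8.30 under iguratimod and 8.22 and 8.07 in the p50 pair, a difference of 0.13 ± 0.12.

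The S-phase and mitotic groups were then set side by side. Over tested genes the median difference between EAE and naive was 0.41 for S-phase and 0.60 for mitotic genes, beside 0.01 for all genes tested. Over all named genes without the filter the medians were 0.37 and 0.34, so the gap between the groups was not there once the dim genes were counted. The 8 that passed were all mitotic, but 3 S-phase genes and Cdk1 lay close to the threshold, with adjusted p between 0.0551 and 0.0739 for Mcm6, Mcm3 and Tk1 and 0.0569 for Cdk1. Whether the groups differ was not tested, since the genes share arrays and are no replicates.

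**Figure D3:**
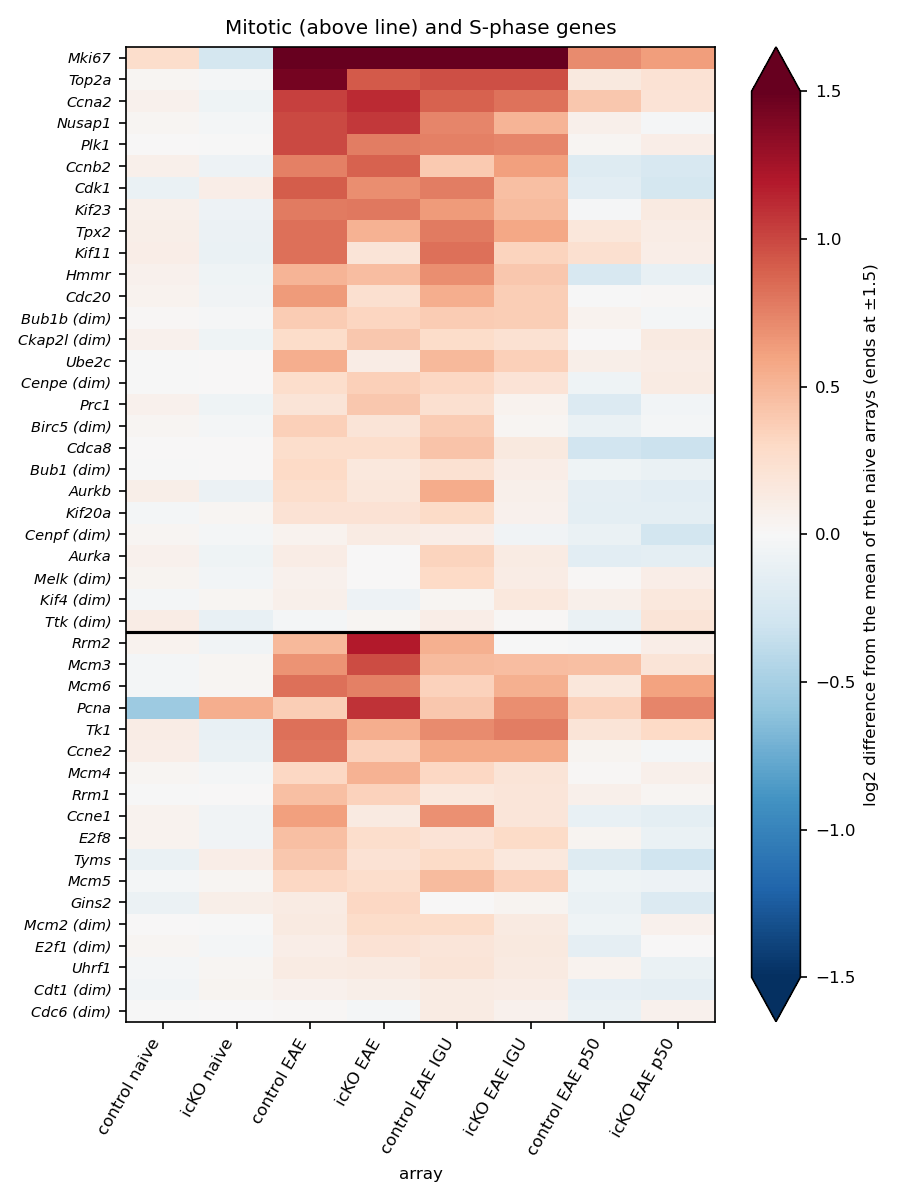
Difference of each array from the mean of the 2 naive arrays, in log2 units, for 27 mitotic (above the line) and 18 S-phase genes, with "dim" marking the 13 below the filter on every array. The colour scale ends at 1.5 in both directions, which Mki67 passes on all 4 EAE and iguratimod arrays. Colours on the EAE arrays are red in nearly every gene, and those of the p50 arrays are near white in most.

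Further genes of the pathway were read from lists. Of 50 other mitotic genes 26 were tested and 24 were higher in EAE, against 9361 of the 18244 genes tested. Of the 26, 4 were called higher, against 3.33% of all genes tested. The 4 were Stmn1, a microtubule-destabilising protein, by 1.44 ± 0.16, the condensin subunit gene Smc4 by 1.36 ± 0.15, Depdc1a by 0.86 ± 0.15 and the kinetochore scaffold gene Knl1 by 0.78 ± 0.12. Without the filter 3 of 49 were called (Knl1, Smc4 and Stmn1), against 1.34% of all named genes. Of 50 other replication genes 27 were tested and 0 passed, against the same 3.33%, with 22 higher and a median of 0.17. The largest differences there were 0.62 ± 0.20 for Gins1 and 0.53 ± 0.13 for Atad2. Among 9 tested inhibitors and Rb-family genes 5 were higher and 2 were called higher, against 3.33% of all genes tested. Without the filter the same 2 of 18 were called, against 1.34% of all named genes. Cdkn1a, which encodes the CDK inhibitor p21, was at 9.09 and 8.86 in naive control and icKO, 10.55 and 10.46 in EAE, 9.95 and 9.95 under iguratimod, and 9.16 and 9.35 in the p50 pair, a rise of 1.53 ± 0.14 in EAE (adjusted p = 0.0193). Ccng1 rose by 1.16 ± 0.13 (adjusted p = 0.0214). Of 7 tested cyclin D, kinase and Myc genes and of 8 E2F and DREAM factors 0 passed, which in lists this short lies near the 3.33% of all genes tested. Cdk4 (0.53 ± 0.16) and Tfdp1, the E2F partner (0.72 ± 0.18), had the largest differences in these lists.

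The p50 pair was compared with the EAE and the naive pair. Against EAE, 7 mitotic genes were called lower in the p50 pair: Mki67, Ccnb2, Cdk1, Top2a, Nusap1, Plk1 and Ccna2. They are 7 of 32 tested, against 1.62% of all genes tested that were called lower and 2.7% called in either direction, and 0 were called higher, against 1.09%. Mki67 fell by 2.89 ± 0.17 (adjusted p = 0.00259), and passed without any 1 of the 8 arrays. Ccnb2 fell by 1.04 ± 0.14 (adjusted p = 0.0288), Cdk1 by 1.01 ± 0.16 (0.0395), Top2a by 1.0 ± 0.17 (0.0489), Nusap1 by 0.98 ± 0.13 (0.0244), Plk1 by 0.81 ± 0.13 (0.0412) and Ccna2 by 0.77 ± 0.13 (0.0459). Ccnb2, Cdk1, Top2a, Nusap1 and Plk1 were below the filter's level on both p50 arrays, and with those raised to it the EAE arrays were at least 1.38-fold (Nusap1) to 1.79-fold (Top2a) higher. All 32 tested genes had a difference below 0, 31 after quantile normalization, while 8511 of all 18244 genes tested had one above 0. Over the 45 named genes without the filter, 5 were called lower, against 0.654% of all named genes, and 0 higher, against 0.468%. Both EAE arrays lay above both p50 arrays in 38, against 27.1% of all named genes. Of the S-phase genes 0 passed, the median being -0.40 over the tested ones. The largest difference among them was -0.80 ± 0.28, in Rrm2. Outside the list, Stmn1 and Smc4 fell by 1.42 ± 0.16 and 0.99 ± 0.15, and Cdkn1a and Ccng1 fell by 1.25 ± 0.14 and 0.82 ± 0.13. This comparison and that of EAE with naive share the EAE arrays, so a chance deviation of those arrays would enter both, with opposite sign. The call count fell to 1 without either EAE array or either p50 array, and to 3 without any 1 of the other arrays.

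Against naive, 0 of the 32 genes passed in the p50 pair, with 0.367% of all genes tested called higher and 0.428% called lower. In 11 of 32 both p50 arrays lay above both naive arrays and in 11 both lay below, against 31.6% and 26.9% of all genes tested. The median difference was 0.02 in both S-phase and mitotic genes. Mki67 had the largest, at 0.67 ± 0.17 (adjusted p = 0.114), followed by Pcna at 0.54 ± 0.21. The p50 arrays differ from the other 6 in sex-linked genes. Xist was at 15.90 and 16.64 on them and at most 8.30 elsewhere, and the Y-linked gene Kdm5d was at 7.58 and 7.54 against at least 9.02. Sex and the p50 mark therefore cannot be told apart.

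**Figure D4:**
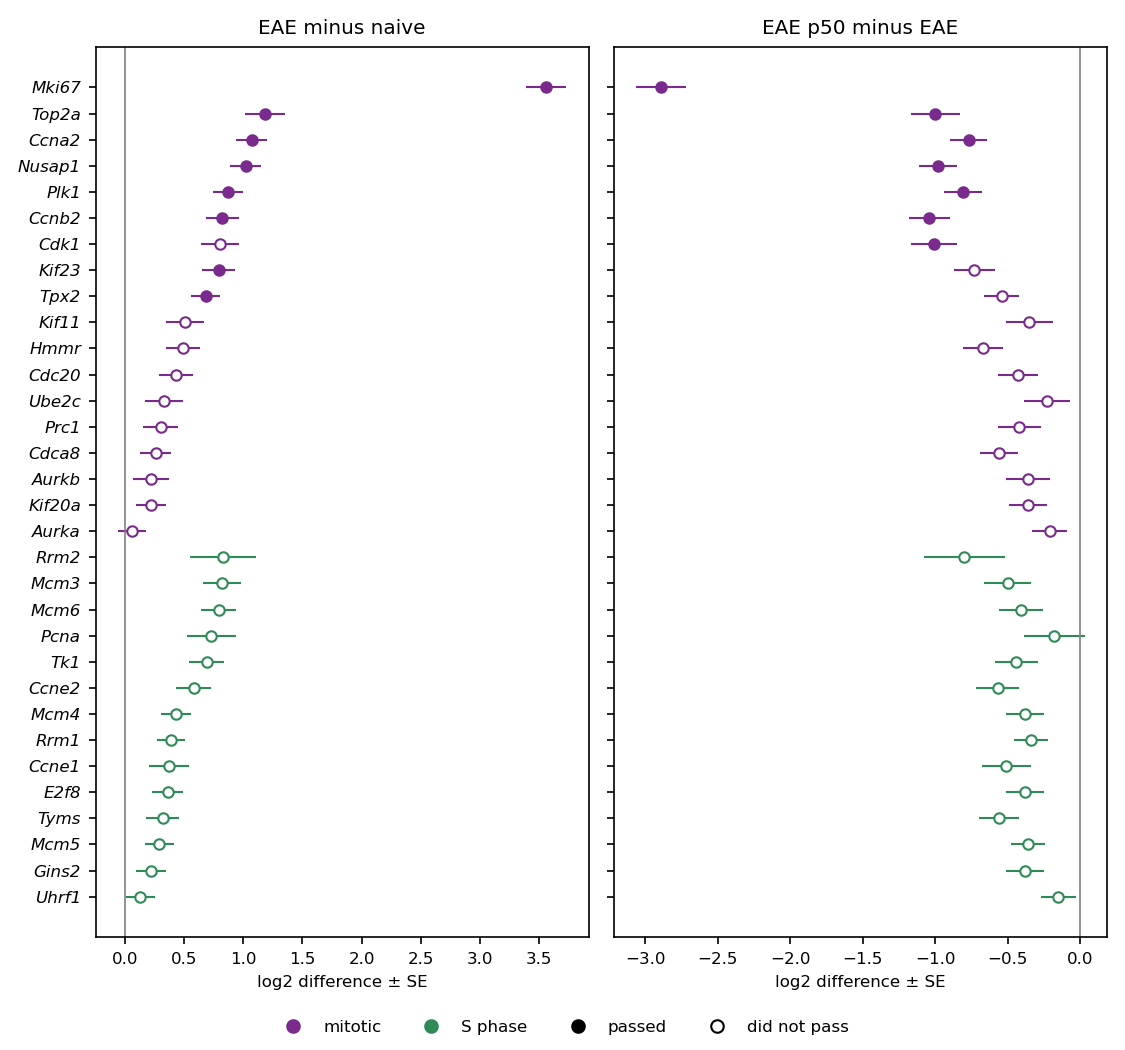
Log2 difference with its limma SE for the 32 tested genes, mitotic in purple and S phase in green, between EAE and naive (left) and between the p50 pair and EAE (right). Filled points passed at an adjusted p of 0.05, 8 on the left and 7 on the right. All points lie right of 0 on the left and left of 0 on the right, and Mki67 stands apart in both.

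Under iguratimod both arrays lay above both naive arrays in 27 of 32 tested genes, against 20.7% of all genes tested, and no difference from EAE without the drug passed. Against EAE, limma called 0 of 18244 genes (0.0%) in either direction, with 1552 at an unadjusted p under 0.05, 1 of them a cell cycle gene, Nusap1 (-0.40). The median difference was -0.14 for tested S-phase and -0.08 for tested mitotic genes. Of the 32 genes, 11 were higher (8 and 5 of 32 under quantile normalization and median centring), against 8831 of the 18244 genes tested. Both EAE arrays lay above both iguratimod arrays in 10 of 32, against 18.9% of all genes tested, and both lay below in 3 of 32, against 14.9%. Rrm2 differed most, at -0.57 ± 0.28 (adjusted p = 0.642). Its icKO arrays were at 8.26 in EAE and 7.07 under iguratimod, and its control arrays at 7.56 and 7.61. Against naive, Mki67 rose by 3.17 ± 0.17 (adjusted p = 0.03), at least 6.58-fold by the same bound, and was the 1 gene called among all genes tested (0.00548% called higher), as it was without the filter (0.00325%). Leaving out any 1 array ended that call. Both iguratimod arrays lay above both naive arrays in 36 of the 45 named genes, against 17.6% of all named genes.

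For icKO against control, 0 of the 32 genes passed over the 4 states, and limma called 0.0% of all genes in either direction, with 991 genes at an unadjusted p under 0.05. Mitotic genes had a median of -0.10, with 2 of 18 higher in icKO. S-phase genes had one of -0.03, with 6 of 14 higher. Over all genes tested the median was -0.02, with 7962 of 18244 higher. The 8 cell cycle genes higher in icKO became 11 of 32 under quantile normalization or median centring. Pcna had the largest difference, 0.61 ± 0.15 (adjusted p = 0.862), higher in icKO in 4 of 4 states by 1.08, 0.71, 0.29 and 0.37 in naive, EAE, iguratimod and p50. Mki67 gave -0.42 ± 0.12 (adjusted p = 0.882) and was lower in icKO in 4 of 4 states, by values from -0.63 to -0.07. Kif11, the kinesin that pushes spindle poles apart, gave -0.36 ± 0.12 and was also lower in all 4. Within a state, where 1 array faces 1 array and no test was made, Pcna in naive microglia was the single tested cell cycle gene at least 2-fold different, higher in icKO, against 0.263% of all genes tested that were 2-fold higher there and 1.64% that were 2-fold lower. In EAE 1.28% of all genes were 2-fold higher in icKO and 0.565% lower, under iguratimod 1.27% and 1.96%, and in the p50 pair 0.291% and 0.0932%, with 0 cell cycle genes in each. The rise from naive to EAE was 3.51 in control and 3.61 in icKO for Mki67, and 1.41 and 0.95 for Top2a. A test of the genotype difference in the change from naive to EAE called 0 of the 32 (lowest adjusted p = 0.907; 0 with an unadjusted p under 0.05), beside 0.0% of all genes. It also called 0 for the change under iguratimod, where Rrm2 alone had an unadjusted limma p under 0.05 (-1.24 ± 0.28, adjusted p = 0.588), and 0 for p50 against EAE (lowest adjusted p = 1.0), each beside 0.0% of all genes. These fits leave 1 residual degree of freedom.

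Markers of blood leukocytes moved with the state as well. Of 10 monocyte markers 9 were named and 8 were tested. All 8 were higher in EAE, against 9361 of the 18244 genes tested, with a median difference of 2.06. Of the 8, 3 were called, against 3.33% of all genes tested. These were Ly6c2 by 4.32 ± 0.40, Ms4a4c by 2.61 ± 0.38 and Chil3 by 2.24 ± 0.38. The summed linear intensity of the 9 was 2734 to 3529 in naive, 27002 to 27980 in EAE, 3745 to 4652 in the p50 pair, and 5440 in control and 12444 in icKO under iguratimod. That of the 27 mitotic genes was 5818 to 6192 in naive, 10205 to 11646 in EAE, 6039 to 6061 in the p50 pair, and 10832 in control and 9022 in icKO under iguratimod. Single genes weigh on both sums, in EAE most of all Mki67 and Ly6c2, the latter at 14.27 in control and 13.96 in icKO. Median levels of the mitotic genes were 7.86 and 7.74 in naive control and icKO, 8.49 and 8.44 in EAE. They were 8.45 and 8.21 under iguratimod and 7.76 and 7.78 in the p50 pair. Those of the monocyte markers were, in the same order, 8.27 and 8.0, 9.57 and 9.91, 8.35 and 9.57, and 8.22 and 8.44. On the control iguratimod array the mitotic sum lay between those of the EAE arrays and the monocyte sum below both, and on the icKO iguratimod array both sums lay below both EAE arrays. The 10 neutrophil markers summed to 900220 on the control EAE array and 103305 on the icKO EAE array, to 6364 to 25709 in naive, 40568 and 132446 under iguratimod and 6112 to 12919 in the p50 pair. Of these markers 9 were tested and 0 passed in EAE, with a median difference of 3.56. Of 5 markers of granulocyte precursors, cells that divide, Elane, Mpo and Prtn3 were at most 7.6 on every array, below the filter's level. Fcnb, one of the 2 that were tested, was at 8.12 and 7.90 in naive control and icKO, 8.63 and 8.12 in EAE, 8.19 and 8.30 under iguratimod and 7.81 and 8.05 in the p50 pair, a difference of 0.37 ± 0.20 between EAE and naive (adjusted p = 0.386) and -0.45 ± 0.20 between p50 and EAE (0.299). Ctsg, the other, gave -0.10 ± 0.19 in EAE and was highest on the control iguratimod array, at 8.66. The 10 named T cell markers summed to 3038 to 3605 over the 8 arrays, a sum that Il7r, the brightest, weighs on most. Of the 5 tested, 4 were higher in EAE than in naive and 0 passed. Cd3d was at 7.5 and 7.77 in naive control and icKO, 8.0 and 8.4 in EAE, 7.99 and 8.05 under iguratimod and 7.47 and 7.54 in the p50 pair. Its EAE arrays lay above its naive and p50 arrays, by 0.56 ± 0.14 (adjusted p = 0.0968) and with -0.69 ± 0.14 for p50 against EAE (0.0671). Cd3e was at 9.09 on the icKO EAE array and at most 8.23 elsewhere, and Cd4 was at most 7.19 on every array. Microglial markers moved with the state too, mostly the other way. In EAE 9 of 11 were lower than in naive, with a median difference of -0.43, and 0 passed. Gpr34 gave -1.48 ± 0.28 (adjusted p = 0.0512) and Fcrls -1.31 ± 0.28 (0.0703). In the p50 pair against EAE 9 of 11 were higher, with a median of 0.79, and Tmem119 rose by 0.90 ± 0.16 (adjusted p = 0.0485). The summed intensity of the 11 was 604923 to 758680 in naive, 513299 to 571628 in EAE, 580862 to 586570 under iguratimod and 654833 to 711255 in the p50 pair. What part monocytes, neutrophils, their precursors, T cells or a change in the share of microglia have in the cell cycle differences was not tested.

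**Figure D5:**
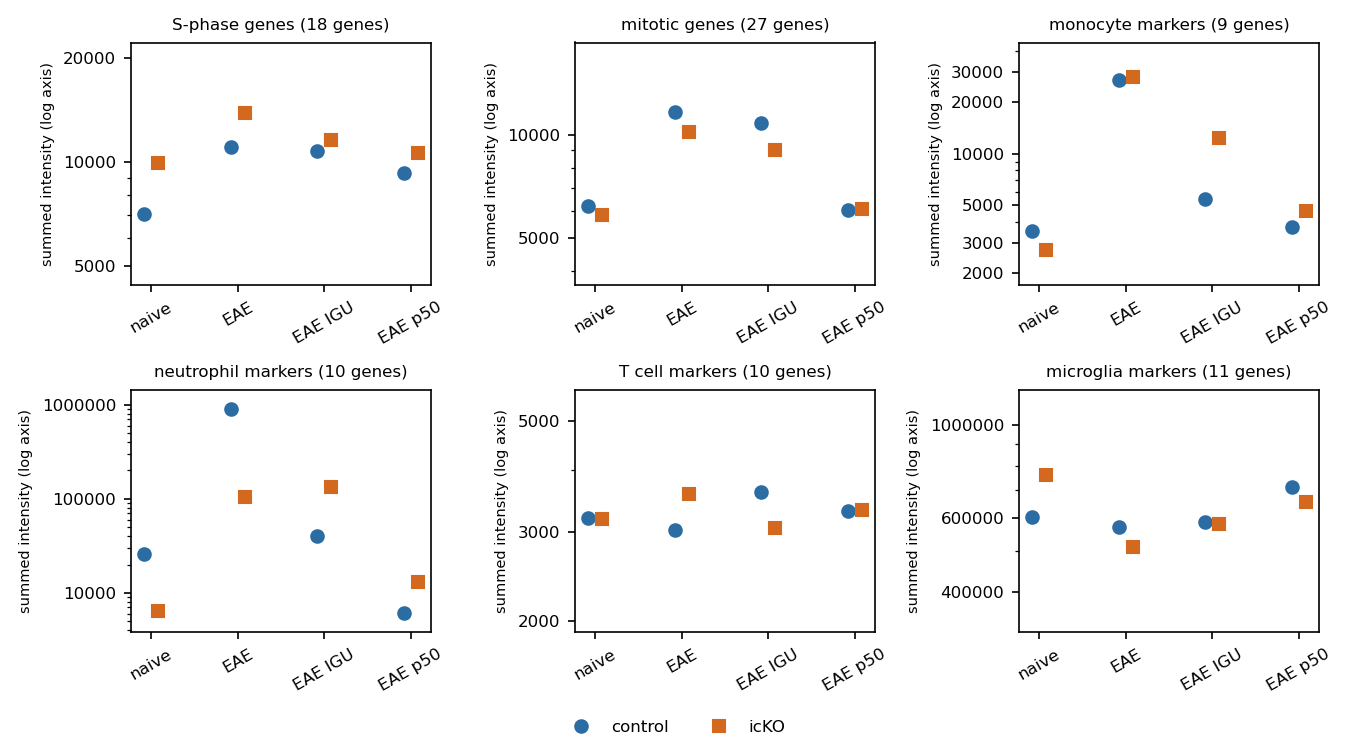
Summed linear intensity per array, on a log axis, of the S-phase and mitotic genes and of 4 marker lists, by state, with control as circles and icKO as squares (1 array each). The mitotic sum is high on the EAE and iguratimod arrays, whereas the monocyte sum is high in EAE and lower under iguratimod, at 5440 and 12444. In EAE Mki67 weighs most on the mitotic sum and Ly6c2 on the monocyte sum. The S-phase sum rests most on Pcna, at 12.23 in control and 12.94 in icKO in EAE, and at 11.32 and 12.40 in naive.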

How the data were processed

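Microglial RNA from 8 groups was hybridised to 1 Affymetrix mouse whole-transcript array each. The deposited values are linear intensities that the authors summarised per probe set. Affymetrix Expression Console is named in the submitters' processing notes, and the methods of probe summarisation and array normalization are not given in the sources used here. Probe sets were named from the platform annotation, updated through RefSeq records of GRCm38.p6: of 65956, 31216 had 1 symbol, 1534 several (left out) and 33206 none here. The brightest probe set stood for a gene. Intensities were converted to log2(intensity + 16), with a pseudocount of 16 and no further normalization, and fitted with limma 3.58.1 in R 4.3.3 (lmFit and eBayes, state plus genotype), with Benjamini-Hochberg adjustment over 18244 genes and a two-sided threshold of 0.05. The fit was run on simulated data with known changes, as a check of the code. The simulated noise was independent, with a common spread for all genes. It held no failure of state and genotype to add up, so it does not test the p-values given here.

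The fits were repeated without the filter, with it at the 70th percentile, with quantile normalization, median centring, the mean of probe sets, a pseudocount of 64, a trended robust prior, and leaving out each array, both p50 arrays or, added after seeing the data, both iguratimod arrays. The genes, lists and tests were chosen with earlier results of these data known. Levels on all arrays were given by rule for genes that passed anywhere and, in the S-phase and mitotic groups, for those with the 4 largest and 2 smallest differences between EAE and naive. From the other lists, those past the threshold, and the 2 with the largest difference, could be named. The S-phase promoters printed are those of the 3 genes with the largest differences. Those of the mitotic genes follow no such ranking. Promoter motifs were sought as letters in RefSeq sequences.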

Additional observations from a re-analysis of the deposited data

How the results depend on the processing

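The number of cell cycle genes called in EAE against naive, 8, was 5 with no filter, 4 with the filter at the 70th percentile, 1 without both p50 arrays and 5 without both iguratimod arrays (a setting chosen after seeing the data), and ran from 0 to 5 when single arrays were left out. The count of all genes called there, 678, was 268 after quantile normalization, 231 without both p50 arrays and 0 to 605 without single arrays. For p50 against EAE, the 7 cell cycle genes became 3 with the 70th percentile filter or without both iguratimod arrays and ran from 1 to 3 without single arrays, and the 493 genes of all kinds ran from 65 to 426. For iguratimod against naive, the 1 gene called (Mki67) became 0 without both p50 arrays and ran from 0 to 0 without single arrays, and the count over all genes became 3 with the 70th percentile filter and 0 without both p50 arrays. For p50 against naive, the 145 genes called became 370 with the 70th percentile filter, 417 after quantile normalization, 404 with arrays centred on their median, 221 without both iguratimod arrays and 50 to 221 without single arrays, while cell cycle genes stayed at 0. When genotypes were compared in how they changed from naive to EAE (0 genes called), 14 genes were called with the 70th percentile filter and 19 with a trended and robust prior, 0 of them cell cycle genes. Under quantile normalization the share of higher calls was 63.7% for p50 against EAE (main 40.2%) and 71.9% for p50 against naive (main 46.2%). None of the 9 called cell cycle genes changed sign under any alternative run; signs of other genes were not compared. Mki67 kept its call in EAE against naive under all 9 settings that leave out no single array (adjusted p 0.00316 to 0.0397) and in 4 of 8 that do, and in p50 against EAE under all 16. The cause of these changes was not tested. With 1 array per group there were no replicates to pair, and the fit itself compares states within each genotype. Signal over background limits the dim genes: 20 of 32 tested cell cycle genes were under the filter's level on both naive arrays.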
